A study of Mus musculus with 6 samples.

Results

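Keratins are the intermediate filament proteins of epithelial cells. All 51 genes listed under a keratin symbol (Krt followed by a number and at most 1 letter) were taken from a table of 17582 genes, whatever their level. They comprised 27 type I genes, 23 type II genes and the keratin-like Krt222. Messenger RNA of first mandibular molars from C57BL/6 mice at postnatal day 4 had been sequenced on the BGISEQ-500 platform in 6 libraries. The 3 knockout libraries came from K14-Cre; Wnt10aflox/flox mice and the 3 control libraries from Wnt10aflox/flox littermates without Cre, so both groups carried the floxed alleles of Wnt10a, a secreted Wnt ligand. The promoter that drives Cre is that of Krt14, itself one of the genes described here, and it is active in epithelium and not in the dental mesenchyme. The labels do not say whether a library held the teeth of 1 animal or of several, and the p-values therefore reflect only the spread among these libraries.

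Each keratin filament is built from an acidic type I and a basic type II keratin, which pair obligately, and the filaments are tied to desmosomes between cells and to hemidesmosomes at the basement membrane. The pair that a cell makes follows its position and fate. Krt5 and Krt14 mark the basal layer of stratified epithelia and also the dental epithelium, Krt8 and Krt18 simple epithelia, Krt4 and Krt13 the suprabasal layers of the oral mucosa, Krt1 and Krt10 cornifying epidermis, and a large further set the inner root sheath and the shaft of hair. A molar dissected from the newborn jaw lies under oral mucosa, so both dental and mucosal keratins may be present in one library.

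The type I genes lay in a cluster on chromosome 11 and the type II genes in a cluster on chromosome 15, and the bases before the starts of 5 genes are shown because these genes carry the patterns described below. They are a basal gene (Krt5), an appendage gene (Krt75), an inner root sheath gene (Krt73), a mucosal gene (Krt13) and Krt24 of the same cluster, both of which were high in a single library. The 250 bases before each start are from RefSeq on GRCm38.p6, the assembly also called mm10, and are printed 5′ to 3′ on the strand of the gene. Capitals mark the letters ATAA that lie 40 to 20 bases before the start, and the letters TGANTCA, the core of the AP-1 site. All 5 genes are on the minus strand. The bases just after the listed start were found in a GENCODE transcript of the same gene for Krt75, Krt13 and Krt24. They were not found for Krt5 and Krt73, whose starts lack that support. The windows are chr15:101712906-101713155 for Krt5, chr15:101573905-101574154 for Krt75, chr15:101802361-101802610 for Krt73, chr11:100121567-100121816 for Krt13 and chr11:99285263-99285512 for Krt24.
Krt5: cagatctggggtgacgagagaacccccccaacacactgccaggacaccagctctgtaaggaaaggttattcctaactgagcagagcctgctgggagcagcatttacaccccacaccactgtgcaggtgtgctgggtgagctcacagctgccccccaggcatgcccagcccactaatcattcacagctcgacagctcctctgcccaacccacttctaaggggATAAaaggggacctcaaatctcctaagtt
Krt75: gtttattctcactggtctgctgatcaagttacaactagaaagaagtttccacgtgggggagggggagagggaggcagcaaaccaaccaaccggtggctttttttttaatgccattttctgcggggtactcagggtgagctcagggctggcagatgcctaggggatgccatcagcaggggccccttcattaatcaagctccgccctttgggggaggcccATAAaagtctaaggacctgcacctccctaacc
Krt73: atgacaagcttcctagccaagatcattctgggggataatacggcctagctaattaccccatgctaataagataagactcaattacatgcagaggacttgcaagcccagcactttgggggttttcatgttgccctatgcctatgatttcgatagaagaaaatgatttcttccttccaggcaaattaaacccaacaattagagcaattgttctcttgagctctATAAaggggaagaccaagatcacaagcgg
Krt13: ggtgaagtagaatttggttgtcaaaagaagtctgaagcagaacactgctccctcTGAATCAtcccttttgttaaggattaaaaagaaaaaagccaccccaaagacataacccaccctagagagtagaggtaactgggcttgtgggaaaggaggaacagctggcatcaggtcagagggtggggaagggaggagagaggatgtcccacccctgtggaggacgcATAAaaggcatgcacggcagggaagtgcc
Krt24: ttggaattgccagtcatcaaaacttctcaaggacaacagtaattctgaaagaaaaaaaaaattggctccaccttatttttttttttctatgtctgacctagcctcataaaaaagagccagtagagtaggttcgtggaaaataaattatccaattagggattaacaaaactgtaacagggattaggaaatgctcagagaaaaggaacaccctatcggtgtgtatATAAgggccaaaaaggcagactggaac

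Start sites were listed for 35 of the 51 keratins, 36 starts in all. Some of them, that of Krt14 included, lie inside the listed bounds of their gene. Besides Krt5 and Krt73, the starts of Krt27, Krt32, Krt40, Krt42 and Krt72 lack support from a GENCODE transcript. All these windows are counted in the shares that follow. The letters TATAAA, searched on both strands, occurred in 47.2% of these keratin windows and in 12.4% of the 32851 windows of all genes. Restricted to the strand of the gene and to 40 to 20 bases before the start, TATAAA occurred in 36.1% of the keratin windows and 1.99% of all windows. The shorter ATAA at the same place, a motif chosen after the sequences were seen, occurred in 66.7% and 8.08%. It began 29 bases before the start in Krt5, Krt73 and the printed window of Krt13, 32 in Krt75 and 27 in Krt24. Krt13 has another listed start, not printed, without ATAA at that place and with TGANTCA 183 and 34 bases before it. The letters TGANTCA, which read the same on both strands, were in 5.56% of the keratin windows and 6.75% of all windows, and both keratin windows that held them belonged to Krt13. A match is a description of letters and not a site shown to be bound.

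Levels are given as FPKM, a fragment number divided by transcript length and by the mapped total of the library, and values of a group are listed in the order of its replicates 1, 2 and 3. Libraries held an estimated 17840000 to 18380000 reads, and 11774 to 12025 genes reached 1 FPKM. The 11934 genes that reached 1 FPKM in 3 or more libraries were tested with limma on log2(FPKM + 1), with Benjamini-Hochberg adjustment over these genes and a threshold of 0.05 on the adjusted p. Fold changes are knockout minus control on that log2 scale, and so understate the change of genes with low levels. Wnt10a checked the labels, at 19.39, 19.94 and 18.07 FPKM in the knockout libraries and 33.61, 36.59 and 31.68 FPKM in the controls (log2 fold change -0.79, SE 0.077, adjusted p 0.00609), with every knockout library below every control library. It was the 1 gene past the threshold, 0.00838% of those tested.

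No keratin passed the threshold. Of the 51 genes, 22 reached 1 FPKM in at least 1 library and 19 could be tested, and the lowest adjusted p among these was 0.491, for Krt73. Krt4, Krt24 and Krt23 reached 1 FPKM in too few libraries to be tested. By unadjusted p under 0.05, 1 tested keratin was higher in the knockout (Krt73) and 3 were lower (Krt13, Krt15 and Krt75), which makes 4 of 19 beside 5.7% of all tested genes, of which 2.99% were higher and 2.71% lower. The groups did not overlap for Krt73, higher in the knockout, and for Krt13, lower in the knockout, beside 10.1% of all tested genes, 4.8% higher and 5.35% lower. The median log2 fold change of the tested keratins was -0.11, with 7 above 0 and 12 below, while the median of all tested genes was -0.0050. Without control 1 the keratin median was 0.059, with 11 above 0 and 8 below, and the median of all tested genes was 0.018. For 16 of the 19 the 95% interval lay within 1 log2 unit of 0, and the exceptions were Krt13, Krt1 and Krt6a.

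**Figure D1:**
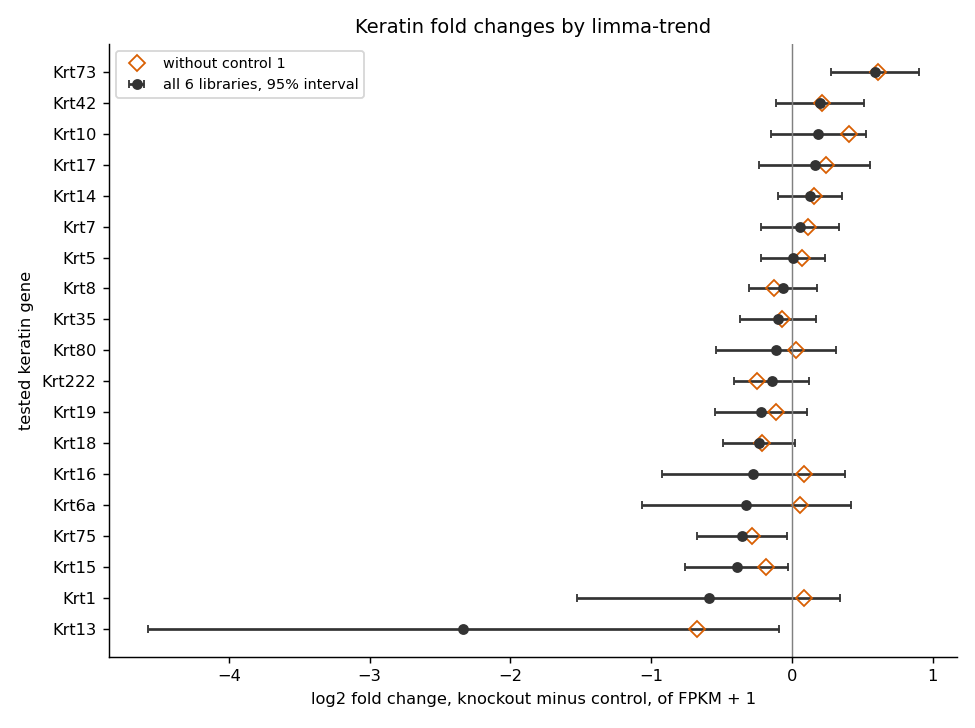
Log2 fold change, knockout minus control, of the 19 tested keratins on the log2(FPKM + 1) scale, with 95% intervals from limma and the value without control 1 beside it. The interval of Krt13 spans -4.58 to -0.09, and its value moves to -0.68 when control 1 is left out.

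The basal pair dominated the family in both groups. Krt5, the type II keratin of basal cells, stood at 1099.89, 1181.76 and 1045.06 FPKM in the knockout libraries and 1204.71, 1189.22 and 937.53 FPKM in the controls. The lowest and the highest library were both controls, and the groups overlapped. The means were 1109 ± 68.8 and 1110.5 ± 150.0 FPKM (SD, n = 3 each), a log2 fold change of 0.0054 (SE 0.104, 95% interval -0.22 to 0.23, adjusted p 0.995). Krt14, the type I partner of Krt5, stood at 989.68, 990.13 and 815.99 FPKM in the knockout libraries and 883.19, 927.95 and 747.82 FPKM in the controls. Here too the groups overlapped, with the third library of each group the lowest. Its log2 fold change was 0.13 (SE 0.105, 95% interval -0.10 to 0.36, adjusted p 0.897).

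Krt15 is a type I keratin of basal cells, known in skin as a mark of quiescent progenitors of the hair bulge. It stood at 47.23, 41.70 and 41.03 FPKM in the knockout libraries and 76.46, 58.17 and 41.65 FPKM in the controls. Controls 1 and 2 were above every knockout library, while control 3 lay among them. The fitted log2 fold change came to -0.39 (SE 0.166, 95% interval -0.76 to -0.03, adjusted p 0.869), and -0.18 without control 1. Against its basal companion, the ratio of Krt15 to Krt14 was 0.0477, 0.0421 and 0.0503 in the knockout and 0.0866, 0.0627 and 0.0557 in the control. Every knockout ratio was below every control ratio. This ratio was computed with the Krt15 levels known and carries no test.

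Among the keratins of activated and appendage epithelium, Krt17, a type I keratin of skin appendages, wounds and embryonic epithelium, ranked after Krt5 and Krt14 in the family. Its values were 468.75, 534.28 and 352.49 FPKM in the knockout libraries and 447.26, 479.38 and 294.94 FPKM in the controls. As with Krt14, the third library of each group was the lowest and the groups overlapped. The fitted log2 fold change came to 0.16 (SE 0.181, adjusted p 0.922). Krt5, Krt14 and Krt17 together made up 88.1% of the summed keratin FPKM in control 1 and 94.5% to 95.2% in the other libraries.

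Krt75, a type II keratin of the companion layer of the hair follicle whose human counterpart has been linked to enamel, stood at 7.0, 7.25 and 5.24 FPKM in the knockout libraries and 9.48, 9.79 and 6.58 FPKM in the controls. Control 3 lay below 2 knockout libraries, so the groups overlapped. The fitted log2 fold change came to -0.35 (SE 0.145, 95% interval -0.67 to -0.03, adjusted p 0.869).

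Krt6a is a type II keratin induced in wounds and present in oral epithelium and the companion layer. It stood at 15.58, 18.77 and 9.09 FPKM in the knockout libraries and 30.66, 18.79 and 9.34 FPKM in the controls. Control 1 was the highest library and the third library of each group the lowest. The fitted log2 fold change came to -0.32 (SE 0.339, adjusted p 0.921), and 0.059 without control 1. Krt16, a type I partner of Krt6a, was at 1.0, 1.09 and 0.31 FPKM in the knockout libraries and 2.51, 1.11 and 0.31 FPKM in the controls, with control 1 again the highest and the third libraries the lowest (log2 fold change -0.28, SE 0.295, adjusted p 0.921). Krt6b reached 0.68 FPKM in control 1 and 0.05 to 0.17 elsewhere. Of the possible 50-base windows of the Krt6a transcripts in GENCODE, 57.5% occur in another gene as well, mainly Krt6b, and the share is 37.6% for Krt16 and 50.1% for Krt6b. Krt6b shared them mainly with Krt6a, and Krt16 with Gm11597, Krt14 and Krt17. The division of reads between each of these genes and those that share its sequence is therefore uncertain. For Krt16 these include the far more abundant Krt14 and Krt17. The shares were 12.2% for Krt5, 14.4% for Krt14, 3.99% for Krt17, 0.666% for Krt15 and 1.32% for Krt73.

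**Figure D2:**
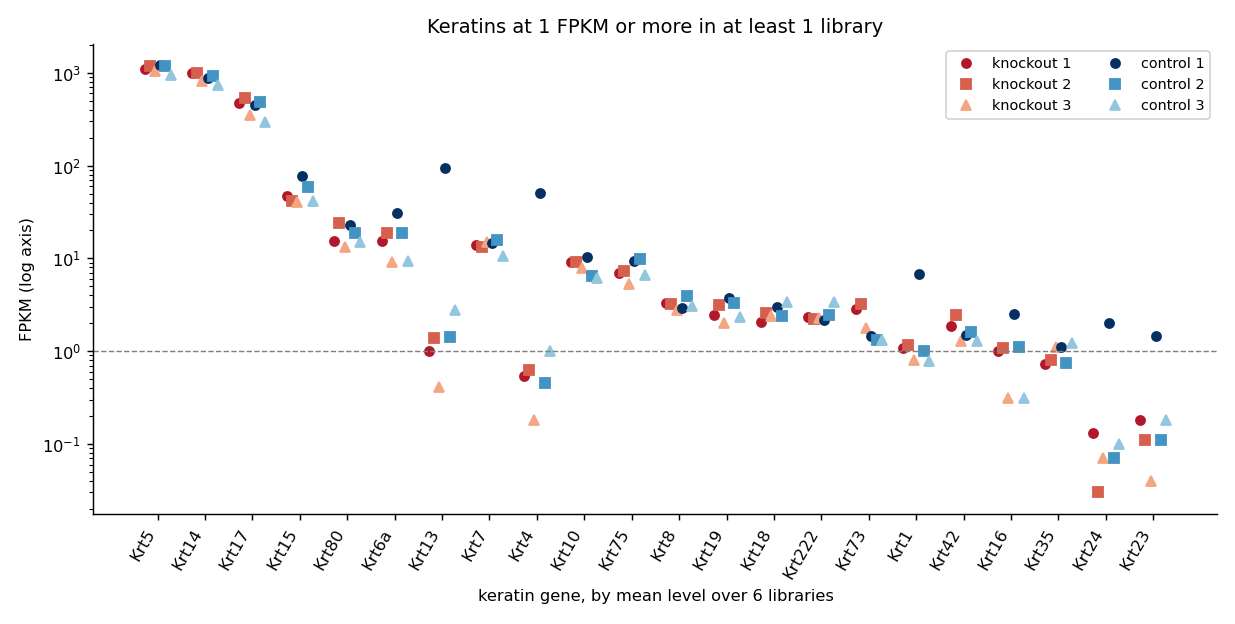
FPKM of the 22 keratins that reached 1 FPKM in at least 1 library, on a log axis, with 1 point per library, knockouts in red tones and controls in blue tones, and a dashed line at 1 FPKM. Krt5, Krt14 and Krt17 lie between 294.94 and 1204.71 FPKM, and a single control point stands far above the rest for Krt13 and Krt4.

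The third library of each group was the lowest for many keratins. Of the 19 tested, 8 were at their lowest in knockout 3 and 8 in control 3, where 25.0% and 32.5% of all tested genes had their lowest value. Summed keratin FPKM was 2690.2, 2847.15 and 2324.27 in the knockout and 2878.87, 2748.6 and 2093.94 in the control, so the third library was lowest in both groups. The summed FPKM of 8 general epithelial markers was 384.61, 391.27 and 346.49 in the knockout and 337.3, 339.9 and 306.11 in the control, with the third library again lowest in each group. Not every epithelial list followed this order. The summed FPKM of 8 ameloblast genes was 239711, 206459 and 244928 in the knockout and 209536, 229473 and 244998 in the control. For this list of the dental epithelium the third library was the highest of each group. Amelx made up most of that sum, and Shh of the same list was lowest in the third library of each group. In whole teeth, fewer epithelial cells and less keratin RNA per epithelial cell cannot be told apart.

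Simple epithelial keratins were low and similar in both groups. Krt7, a type II keratin of simple and glandular epithelia, was the highest of them, at 13.95, 13.23 and 15.1 FPKM in the knockout libraries and 14.61, 15.87 and 10.53 FPKM in the controls. Control libraries gave both its highest and its lowest value (log2 fold change 0.06, SE 0.126, adjusted p 0.964). Krt8 stood at 3.30, 3.26 and 2.79 FPKM in the knockout libraries and 2.93, 3.97 and 3.06 FPKM in the controls, and the groups overlapped (log2 fold change -0.06, 95% interval -0.31 to 0.18, adjusted p 0.951). For Krt8, 29.7% of 50-base windows occur in another gene too, mostly a pseudogene. Its type I partner Krt18 stood at 2.06, 2.56 and 2.39 FPKM in the knockout libraries and 3.02, 2.37 and 3.42 FPKM in the controls. Controls 1 and 3 were above every knockout library and control 2 was not (log2 fold change -0.23, 95% interval -0.49 to 0.02, adjusted p 0.880). Krt19, a small type I keratin of simple epithelia that is also present in dental epithelium, stood at 2.46, 3.13 and 1.99 FPKM in the knockout libraries and 3.72, 3.31 and 2.31 FPKM in the controls, and the groups overlapped (log2 fold change -0.22, SE 0.149, adjusted p 0.891). Krt20, a keratin of gut epithelium and Merkel cells, stayed between 0.06 and 0.23 FPKM.

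The keratins of the oral mucosa were carried by 1 library. Krt13, the type I keratin of suprabasal mucosal cells, stood at 1.01, 1.39 and 0.41 FPKM in the knockout libraries and 94.24, 1.43 and 2.76 FPKM in the controls. Control 1 was 34.1-fold above the next library. The estimated reads were 30, 41 and 12 in the knockout and 2756, 42 and 82 in the control. The fitted log2 fold change came to -2.34 (SE 1.02, 95% interval -4.58 to -0.09, adjusted p 0.869), and without control 1 it was -0.68 (adjusted p 0.9998). The groups did not overlap for Krt13, but control 2, at 1.43 FPKM, was close to knockout 2, at 1.39 FPKM.

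Krt4, the type II partner of Krt13, stood at 0.54, 0.63 and 0.18 FPKM in the knockout libraries and 50.35, 0.45 and 1.0 FPKM in the controls. It followed Krt13, with control 1 50.4-fold above control 3, the next library. Control 2 lay among the knockout values and control 3 above them. The ratio of Krt4 to Krt13 was 0.535, 0.453 and 0.439 in the knockout and 0.534, 0.315 and 0.362 in the control, so control 1 and knockout 1 had nearly the same ratio. Krt76, a type II keratin of the hard palate and gum, stayed between 0.10 and 0.33 FPKM, its highest value also in control 1. The sum of Krt4, Krt13 and Krt76 was 5.03% of all keratin FPKM in control 1 and 0.0327% to 0.188% in the other libraries.

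Further keratins were highest in the same library. Krt1, the type II keratin of cornifying epidermis and of cornified oral surfaces, stood at 1.09, 1.16 and 0.80 FPKM in the knockout libraries and 6.79, 1.01 and 0.78 FPKM in the controls. Only control 1 stood apart, and the fitted log2 fold change came to -0.59 (SE 0.424, adjusted p 0.891) with all libraries and 0.088 without control 1. Krt24 was at 1.99 FPKM in control 1 and 0.03 to 0.13 FPKM elsewhere, Krt23 at 1.46 FPKM and 0.04 to 0.18 FPKM, and Krt78 at 0.75 FPKM and at most 0.02 FPKM, being listed at 0 in control 2. Krt10, the type I partner of Krt1, was also highest in control 1, but close to knockouts 1 and 2. It stood at 9.06, 9.23 and 7.89 FPKM in the knockout libraries and 10.47, 6.54 and 6.16 FPKM in the controls (log2 fold change 0.19, SE 0.154, adjusted p 0.897). Without control 1, its highest library, the log2 fold change of Krt10 in limma was 0.40, with an adjusted p of 0.792. The ratio of Krt1 to Krt10 was 0.649 in control 1 and between 0.101 and 0.154 in the other libraries.

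Control 1 also carried other squamous transcripts. Over the whole table, 32 genes (0.182%) were at 1 FPKM or more in control 1 and at least 5 times the highest of the other libraries, and 5 of them were keratins, namely Krt13, Krt4, Krt1, Krt24 and Krt23. The same rule found 14 genes in control 3, 1 in control 2, 1 in knockout 3 and none in knockouts 1 and 2, with 0 keratins among them. The 10 most abundant of the non-keratin genes in control 1 were Ly6d, Krtdap, Calm4, Serpinb3a, Sprr3, Fam25c, Idi2, Cnfn, Cyp2f2 and Rptn. Ly6d, a surface protein of squamous cells, was at 25.47 FPKM in control 1 and 0.41 to 2.03 FPKM elsewhere. Krtdap, a protein of differentiating keratinocytes, was at 21.75 FPKM and 0.52 to 1.98 FPKM. Sprr3, a cornified envelope protein of oral and oesophageal epithelium, was at 7.95 FPKM and 0.05 to 0.52 FPKM, and Rptn, a cornified envelope protein also found in tongue papillae, at 3.11 FPKM and at most 0.15 FPKM.

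Of a list of 23 squamous differentiation genes other than keratins, 22 were in the table and 19 of these were highest in control 1. In control 1, 7 of the 22 were at least 5 times the highest of the other libraries. Control 1 was the highest library for 27.1% of all tested genes, a share that leaves out untested genes, while only 10 of the 22 were tested. The summed FPKM of the 22 was 159.17, 164.24 and 127.23 in the knockout and 257.57, 162.13 and 121.56 in the control. Of the 10 tested, 0 passed, 2 had a log2 fold change above 0 and 8 below, and the median was -0.26. The 3 most abundant were Sfn, Dmkn and Tgm1. Dmkn was at 24.52 FPKM in control 1 and 16.6 to 18.84 FPKM elsewhere, and Tgm1 at 10.59 FPKM in control 1 and 13.58 FPKM in control 3. Sfn, which encodes the stratifin protein of keratinocytes, was not higher in control 1, at 109.03 FPKM beside 107.67 to 109.85 FPKM in control 2 and knockouts 1 and 2. Involucrin (Ivl), an envelope precursor, was at 0.01 to 0.09 FPKM in every library, and loricrin (Lor) at 9.35 FPKM in control 1 and 1.45 to 1.90 elsewhere. The part of these transcripts in the differences of Krt13, Krt4 and Krt1 between the groups was not tested. The measured fact is that the log2 fold changes of Krt1, Krt6a, Krt16 and Krt80 were above 0 when control 1 was left out, and below 0 with it.

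**Figure D3:**
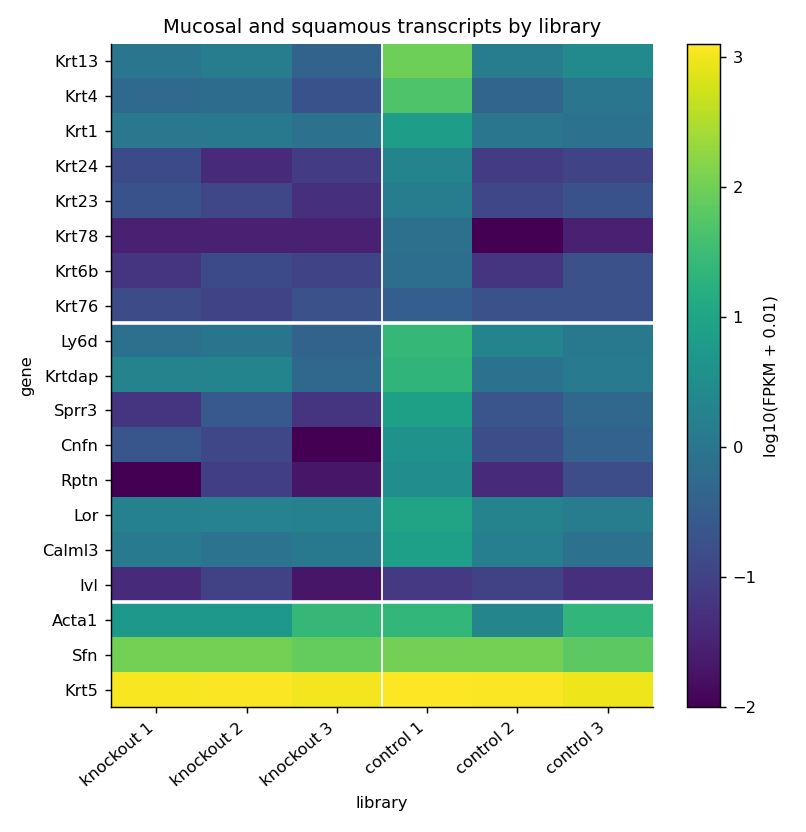
Levels of mucosal and squamous keratins (upper block), chosen squamous genes other than keratins (middle block), and Acta1, Sfn and Krt5 (lower block) in each library. Colours give log10(FPKM + 0.01). The middle block is a part of the list of 23 squamous genes, of which Sfn is also a member. Control 1 is the bright column for Krt13 (94.24 FPKM), Krt4 (50.35 FPKM) and most of the middle block, while Ivl, Sfn and Krt5 do not stand out there.

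Skeletal muscle, which also borders the jaw, followed another order of libraries. The summed FPKM of 8 muscle genes was 12.75, 14.16 and 72.2 in the knockout and 68.35, 7.17 and 49.59 in the control, so knockout 3 was above control 1. Of the 5 tested muscle genes 0 passed, with a median log2 fold change of -0.29. The most abundant were Acta1, Mylpf and Tnnt3, which encode parts of the contractile filaments, and Acta1 was at 25.39 FPKM in knockout 3, 23.82 in control 1 and 22.41 in control 3, and 2.22 to 5.29 FPKM in the remaining libraries. Of the libraries high in muscle, controls 1 and 3 were also the highest for Krt13, at 94.24 and 2.76 FPKM. Knockout 3 was the lowest for Krt13, at 0.41 FPKM. A link between muscle and mucosal transcripts was not tested. Salivary gland transcripts were near 0, the summed level of 4 genes lying between 0.68 and 1.02 FPKM and Smgc being listed at 0 in all libraries but control 3. The 3 Merkel cell genes summed to 0.02 to 0.22 FPKM, and Atoh1 was listed at 0 in all but knockout 3. The enamel list was high throughout, with a sum of at least 206459 FPKM in every library, and its most abundant genes were the enamel matrix genes Amelx, Ambn and Enam. Of its 8 genes, all tested, 0 passed and the median log2 fold change was -0.05.

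Among the keratins of the hair follicle, Krt73 differed most. It encodes a type II keratin of the inner root sheath cuticle and lies at positions 101793304 to 101802360 of chromosome 15. It stood at 2.86, 3.19 and 1.77 FPKM in the knockout libraries and 1.44, 1.31 and 1.33 FPKM in the controls. Every knockout library was above every control library, and knockout 3 was the nearest to the controls. The estimated reads were 112, 122 and 69 in the knockout and 55, 50 and 52 in the control. This gave a log2 fold change of 0.59 (SE 0.142, 95% interval 0.28 to 0.90) and an unadjusted p of 0.00156 that did not pass adjustment over all genes (adjusted p 0.491). The adjusted p ranged from 0.0473 to 0.9999 over the alternatives tried, and of these alternatives it was under the threshold only where knockout 3 was left out.

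The other inner root sheath keratins did not follow Krt73 to a measurable level. Krt28 was at 0.67, 0.53 and 0.54 FPKM in the knockout libraries and 0.34, 0.50 and 0.60 FPKM in the controls, so the groups overlapped. Krt27 stayed between 0.32 and 0.44 FPKM, and Krt25, Krt26, Krt71 and Krt72 were at 0.13 FPKM or less in every library. The sum of the 7 genes was 4.23, 4.12 and 2.80 FPKM in the knockout libraries and 2.44, 2.32 and 2.44 FPKM in the controls, higher in every knockout library, with Krt73 the largest part of it. Trichohyalin (Tchh), an inner root sheath protein that the keratin filaments are embedded in, was at 11.5 ± 1.18 FPKM in the knockout libraries and 12.4 ± 0.245 FPKM in the controls. Of 7 hair follicle genes other than keratins in the table, 3 were tested (Msx2, Tchh and Padi3), 0 passed and the median log2 fold change was -0.02.

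The 14 keratins of hair shaft, nail and tongue papillae summed to 2.21 to 2.94 FPKM. Krt35, a type I keratin of the hair cortex, was the only one of them tested, at 0.73, 0.81 and 1.11 FPKM in the knockout libraries and 1.10, 0.75 and 1.21 FPKM in the controls. The groups overlapped (log2 fold change -0.10, SE 0.123, adjusted p 0.927). Krt36, a keratin of tongue papillae and nail, was between 0.23 and 0.58 FPKM, and Krt82, of the hair cuticle, between 0.26 and 0.58 FPKM. Krt84 and Krt85 reached at most 0.43 FPKM, and the gene listed as Krt83, which RefSeq names Krt87, at most 0.16 FPKM. Krt31, Krt32, Krt33a, Krt33b, Krt34, Krt39, Krt40 and Krt86 were at 0.08 FPKM or less in every library and listed at 0 in at least 1. Hair shaft keratins are embedded in keratin-associated proteins, of which 13 genes were in the table, at 0.35 FPKM or less.

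Of the keratins outside these classes, Krt80, a type II keratin of many differentiating epithelia, was the highest. It stood at 15.44, 24.34 and 13.41 FPKM in the knockout libraries and 22.96, 18.97 and 14.85 FPKM in the controls. A knockout library was highest and another lowest, so the groups overlapped (log2 fold change -0.11, SE 0.193, adjusted p 0.951). Krt222, a keratin-like gene, stood at 2.33, 2.21 and 2.30 FPKM in the knockout libraries and 2.15, 2.45 and 3.38 FPKM in the controls (log2 fold change -0.14, adjusted p 0.898). Krt42, a type I gene that is a pseudogene in humans, stood at 1.86, 2.46 and 1.29 FPKM in the knockout libraries and 1.5, 1.62 and 1.28 FPKM in the controls (log2 fold change 0.20, adjusted p 0.891). The groups overlapped for both. Krt79, of the hair canal, was between 0.26 and 0.88 FPKM, Krt90 at most 0.32 FPKM and Krt88 at most 0.13 FPKM. Krt9 of palm and sole skin was at most 0.33 FPKM, Krt77 of sweat duct and epidermis at most 0.04 FPKM, and Krt12 of the cornea at most 0.12 FPKM. Altogether 29 of the 51 genes were under 1 FPKM in every library and 15 were listed at 0 in at least 1.

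By position, the chromosome 11 cluster held 27 genes between 99232761 and 100269951, a span of 1037 kb, of which 12 reached 1 FPKM in some library. The chromosome 15 cluster held 23 genes between 101348315 and 102032026, a span of 684 kb, of which 10 reached 1 FPKM. Krt18, a type I gene, is the exception in the type II cluster, and Krt85 had no position in the gene table used. The highly expressed genes were not in 1 block. Krt14 and Krt17, at chromosome 11 positions 100203162 to 100207510 and 100256215 to 100261029, flank Krt16 at 100246091 to 100248902, which stayed at 2.51 FPKM or less. On the other side of Krt14, Krt13 at 100117327 to 100121566 lies next to Krt15 at 100131759 to 100135949.

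**Figure D4:**
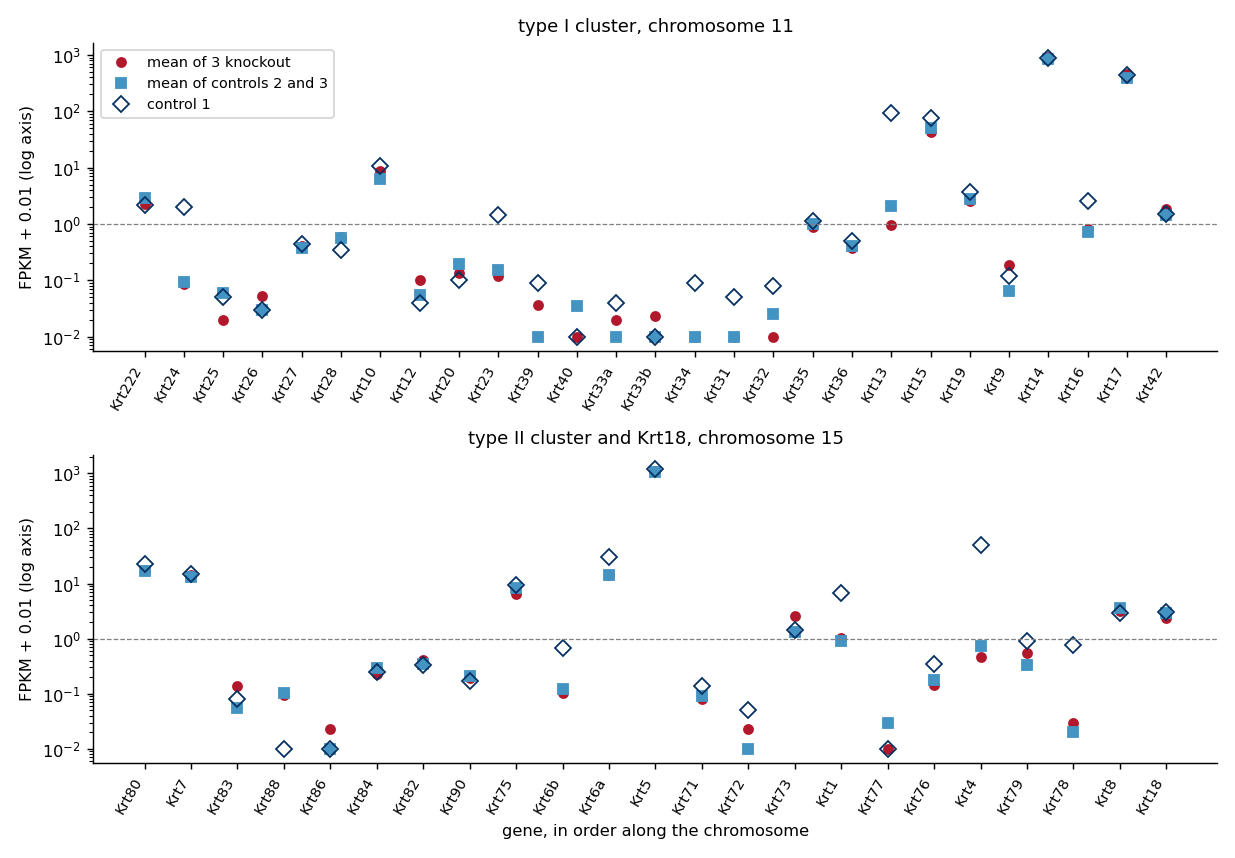
FPKM + 0.01 of the keratins on a log axis, in their order along the chromosome 11 and chromosome 15 clusters, as the mean of the 3 knockout libraries, the mean of controls 2 and 3, and control 1 alone; the dashed line is 1 FPKM. Krt5, Krt14 and Krt17 stand highest. Among keratins that reached 1 FPKM, control 1 stands apart from both means for Krt13, Krt4, Krt1, Krt24 and Krt23. Under that line it does so for genes such as Krt78, at 0.75 FPKM, and Krt6b, at 0.68 FPKM.

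The balance of the types was compared because the partners polymerise together. The ratio of summed type II to type I FPKM was 0.761, 0.791 and 0.893 in the knockout and 0.882, 0.850 and 0.894 in the control, and the groups overlapped. The ratio of Krt5 to Krt14 was 1.11, 1.19 and 1.28 in the knockout and 1.36, 1.28 and 1.25 in the control. Knockouts 1 and 2 were below all controls and knockout 3 lay among them. The ratio of Krt8 to Krt18 was 1.60, 1.27 and 1.17 in the knockout and 0.970, 1.68 and 0.895 in the control, with controls both highest and lowest. For Krt6a to Krt16 it ran from 12.2 in control 1 to 30.1 in control 3. Summed keratin FPKM was 0.374% to 0.542% of the summed FPKM of a library, with control 3 lowest and control 1 highest.

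**Figure D5:**
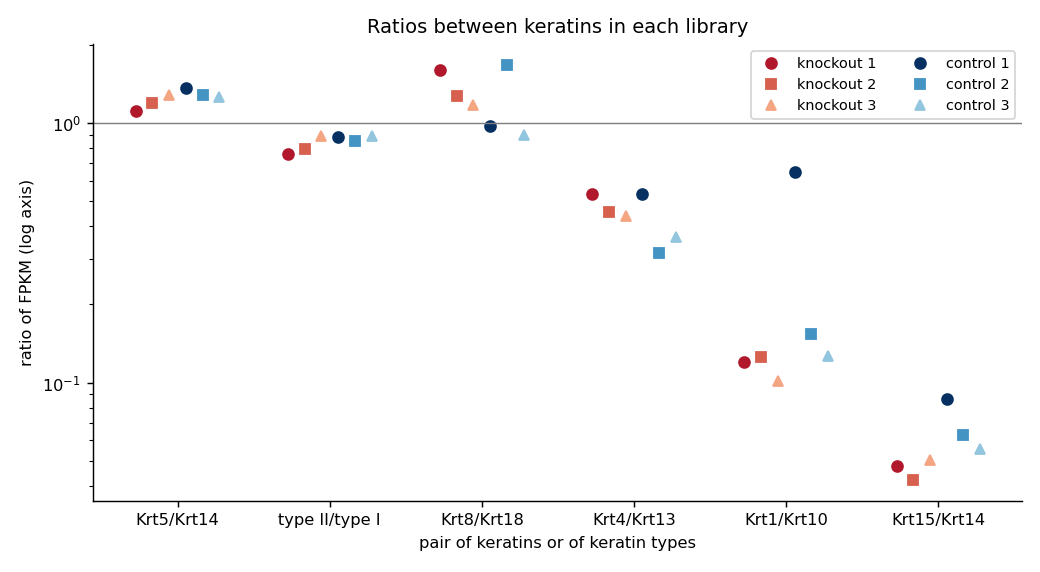
Ratios of FPKM between partner keratins, between summed types and between Krt15 and Krt14 in each library, on a log axis, knockouts in red tones and controls in blue tones. The Krt1 to Krt10 ratio of control 1, 0.649, stands apart from the range of 0.101 to 0.154 in the other libraries, while the Krt4 to Krt13 ratio of control 1 lies inside the range of the knockout libraries.

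The partners of keratins in the cell were described by lists. Of 17 genes that anchor keratin filaments at desmosomes and hemidesmosomes, 16 were tested, 0 passed, and 4 had a log2 fold change above 0 and 12 below, with a median of -0.05. The most abundant were Perp, a desmosomal membrane protein, at 402 ± 25.9 FPKM in the knockout libraries and 386 ± 19.7 FPKM in the controls, and the hemidesmosomal collagen Col17a1, at 100.5 ± 7.70 and 113 ± 7.89 FPKM (adjusted p 0.874). Next came the plakophilin Pkp1, at 75.2 ± 5.34 and 79.2 ± 9.49 FPKM. Of 12 transcription factors of stratified epithelium, 7 were tested, 0 passed and the median was -0.02, and Trp63, the factor that sets the basal programme, was at 61.3 ± 3.22 and 62.3 ± 7.66 FPKM, beside Klf4 at 39.2 ± 4.29 and 39.9 ± 2.06 FPKM. Of 8 general epithelial genes, 7 were tested, 0 passed, and 6 had a log2 fold change above 0, with a median of 0.08. The most abundant of these were Cldn1, Cdh1 and Esrp1, and Cldn1, a tight junction protein, averaged 233 ± 12.9 FPKM over the knockout libraries and 193 ± 3.94 FPKM over the controls (adjusted p 0.561). These directions, like the medians, are read beside the median of all tested genes, -0.0050.

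The authors' deposited table gives its own test. A q-value is given in the authors' deposited table for 44 keratins, of which 17 were under 0.05, beside 24.4% of all genes with a q-value. Of these, 5 were higher in the knockout in the authors' deposited table, beside 10.2% of all genes, and 12 were lower, beside 14.1%. In that table Krt14 had a log2 ratio of 0.10 with a q-value of 5.91e-36, and Krt17 one of 0.15 with a q-value of 1.1e-43, although both genes overlapped between the groups. Krt13 had a log2 ratio of -5.18 and Krt4 one of -5.26 in the authors' deposited table, values that compare group means and so hold control 1. For Krt73 the authors' deposited table gives a log2 ratio of 0.93 with a q-value of 3.13e-10. What test the authors used was not stated in the sources used here, and its q-values and the adjusted p-values of limma are not on one footing.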

How the data were processed

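The authors deposited 1 table with an FPKM value per gene and library, together with their log2 ratio of knockout to control, p-value and q-value, per the file headers. The submitters' processing notes name Bowtie2 as a tool and mm10 as the genome build. Versions, the tool behind FPKM, the annotation and the statistical test of the authors were not stated in the sources used here. FPKM scales to each library's total, so abundant transcripts lower all others. Depth was inferred from how low FPKM values step, taking 20 bases off the transcript length. At the inferred depths 85.2% to 93.1% of the 212 to 252 low values used per library came within 0.15 of a whole number of reads. The depths and the 20 bases were chosen to make this share highest. It is therefore not on one footing with the 30% expected by chance at a depth not so chosen. Read numbers per gene rest on this estimate.

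Groups came from the genotype labels. The test was limma 3.58.1 with a mean trend in R 4.3.3 on log2(FPKM + 1), group as the only term, checked on simulated data. Sums, ratios and lists carry no test. Keratins and gene lists were chosen with earlier results of these data known. Named were every keratin at 1 FPKM or more in at least 1 library, the 3 most abundant genes of a list where none passed, and the 10 most abundant non-keratin genes that mark the library richest in Krt4 and Krt13; other genes named were chosen after their values were seen. Of the genes that this rule names, 1 is not reported here and some are named without values. Shared sequence was counted in GENCODE M21 transcripts, and positions and promoters are from RefSeq on GRCm38.p6. Alternatives were a pseudocount of 0.1, no filter, a filter at 5 FPKM, median-ratio scaling, the replicate number as a block, and each library left out in turn. Calculations used Python 3.11.15 with numpy 2.4.6 and pandas 2.3.3, and plots matplotlib 3.10.9.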

Additional observations from a re-analysis of the deposited data

How the results depend on the processing

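With limma, the number of keratins past the threshold was 0 with all libraries and 0 to 1 with a library left out. The 1 was Krt73 without knockout 3, with a log2 fold change of 0.77 and adjusted p 0.0473. Over all genes, 1 passed with all libraries, 3 with a filter at 5 FPKM and 1 to 6 with a library left out, the most without knockout 3 and 3 without control 2. With no filter 0 genes passed, 924 were under an unadjusted p of 0.05, and Wnt10a had a log2 fold change of -0.79 and an adjusted p of 0.106. With a library left out, Wnt10a had an adjusted p of 0.00587 to 0.046. The knockout to control ratio of summed Krt4, Krt13 and Krt76 was 0.0303 and ranged from 0.0205 to 0.51 with a library left out, the highest without control 1. Log2 fold changes crossed 0 for 8 keratins when a library was left out. Their ranges were -0.112 to 0.0688 for Krt5, -0.0563 to 0.328 for Krt17, -0.352 to 0.055 for Krt80, -0.749 to 0.0587 for Krt6a, -0.106 to 0.168 for Krt7, -0.128 to 0.0411 for Krt8, -0.977 to 0.088 for Krt1 and -0.627 to 0.0843 for Krt16. The crossings came without control 1 for Krt80, Krt6a, Krt1 and Krt16, without knockout 3 also for Krt80, without control 2 for Krt8, without control 3 for Krt5, Krt17 and Krt7, and without knockout 2 also for Krt5. The other 11 tested keratins kept their direction, but not their size. Their ranges were 0.036 to 0.22 for Krt14, -0.61 to -0.18 for Krt15, -3.32 to -0.68 for Krt13, 0.062 to 0.40 for Krt10, -0.52 to -0.23 for Krt75, -0.37 to -0.11 for Krt19, -0.34 to -0.14 for Krt18, -0.25 to -0.0075 for Krt222, 0.47 to 0.77 for Krt73, 0.056 to 0.35 for Krt42 and -0.20 to -0.031 for Krt35. The value nearest 0 came without control 1 for Krt15 and Krt13, without control 3 for Krt14, Krt10, Krt18, Krt222 and Krt35, without knockout 2 for Krt73 and Krt42, and without knockout 3 for Krt75 and Krt19. No keratin crossed 0 under another pseudocount, filter, scaling or the block.

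Whether the replicate numbers pair the libraries could not be decided from the correlations of their deviations. Same-numbered libraries correlated at -0.0622, 0.17 and 0.388 for replicates 1, 2 and 3, and different-numbered ones at -0.398 to 0.304. These ranges overlapped, although the value of replicate 3 was the highest. With the replicate block 8 genes passed in place of 1, and 0 keratins, the lowest adjusted p of a keratin being 0.181. The unadjusted p of limma was under 0.05 for 1140 genes with the block and 680 without it.

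Krt73, at 1.31 to 3.19 FPKM, rests on 50 to 122 estimated reads per library, and the 32 keratins that reached 1 FPKM in fewer than 3 libraries were not tested.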

Other observations

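Intermediate filament genes other than keratins, which are expressed mainly outside epithelium or in the nucleus of every cell, were described as a contrast. Of 13 such genes 7 were tested and 0 passed, with a median log2 fold change of -0.06. Vimentin (Vim), the filament protein of mesenchyme, was at 463.73, 464.3 and 505.62 FPKM in the knockout and 459.92, 475.68 and 563.13 FPKM in the control. The third library of each group was its highest, where the same libraries were the lowest for Krt14 and Krt17. Nestin (Nes), a filament protein of odontoblasts, was at 34.32, 44.9 and 50.54 FPKM in the knockout and 49.65, 47.01 and 57.64 FPKM in the control, and the groups overlapped. The nuclear lamin Lmna was at 54.2 ± 2.49 and 57.3 ± 3.69 FPKM (SD, n = 3 each).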
